A study of Mus musculus with 28 samples.

Results

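A set of 10 long non-coding RNAs, out of the 45513 genes that each table lists, was followed through ribosome footprint and total mRNA libraries. They were chosen by name for what they are, nuclear RNAs and hosts of small nucleolar RNAs, with earlier results of these data known. The members are Malat1, Neat1, Miat, Meg3, Rian, Gas5, Snhg1, Snhg8, Snhg11 and Snhg12. The tables list 9 of them, and Snhg1 has no value here because its gene identifier is not among the listed genes. The 28 libraries come from 14 cultures, each of which gave 1 library of footprints and 1 library of fragmented poly(A) RNA. Footprints are RNA fragments that stay protected when RNase digests a lysate, taken here from the monosome (single ribosome) fractions of a sucrose gradient. MN1, a clonal mouse line made by fusing spinal motor neurons with neuroblastoma cells, was transiently transfected with GFP, hTDP-43 or hTDP-43A315T (2 cultures each) and treated with cycloheximide at 100 µg/ml for 3 min before lysis. Cortical neurons were taken from C57BL/6J mouse embryos at embryonic day 16 that were non-transgenic (WT, 2 cultures) or carried human TARDBP transgenes under the Prp promoter, hTDP-43 or hTDP-43A315T (3 cultures each). All neurons were kept for 14 days in vitro with cytosine arabinoside, which removes dividing cells, and none was treated with cycloheximide before lysis.

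Malat1 and Neat1 are transcribed side by side and stay in the nucleus, Malat1 in splicing speckles and Neat1 as the scaffold of paraspeckles, while Miat is a further nuclear RNA of neurons. Meg3 and Rian belong to 1 imprinted cluster and are expressed from the maternal allele, and Rian, Gas5 and the Snhg genes carry small nucleolar RNAs in their introns and release them during splicing. TDP-43 is a nuclear protein that binds UG-rich RNA, and Malat1 and Neat1 are among the RNAs known to be bound by it. An RNA that never meets a ribosome gives few footprints for its abundance, whereas cytoplasmic long non-coding RNAs can carry ribosomes on short reading frames.

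For Malat1, Neat1, Miat, Meg3, Rian and Snhg11, the exonic stretch that holds most of the letters GTGTGT, the DNA form of the UG repeat, is shown because TDP-43 favours such repeats. The sequences were read from the GRCm38 assembly on the transcribed strand, 5′ to 3′, and capitals mark bases within a GTGTGT match.
Malat1, chr19:5799709-5799738, minus strand: gctgttggatgaatatagattgtaGTGTGT
Neat1, chr19:5826021-5826050, minus strand: tGTGTGTGTGTGTGTGTGTGTGTgGTGTGT
Miat, chr5:112213725-112213754, minus strand: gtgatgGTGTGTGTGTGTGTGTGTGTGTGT
Meg3, chr12:109565104-109565133, plus strand: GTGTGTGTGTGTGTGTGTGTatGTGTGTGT
Rian, chr12:109617277-109617306, plus strand: cccgaggaatgtccGTGTGTGTGTGTGTGT
Snhg11, chr2:158377233-158377262, plus strand: taatgggatctgacacctattctgGTGTGT
Overlapping matches were counted separately. Meg3 held 2.76 matches per kb of exon, Miat 3.12 and Neat1 1.78, densities that exceed those of 95.6%, 96.2% and 92.2% of the 33172 listed genes with at least 500 exonic bases. Malat1 held 2 matches in its 6983 exonic bases, or 0.286 per kb, and Snhg11 held 1 in 8521. Rian held 12 matches, 0.687 per kb, a higher density than in 73.1% of those genes. The windows of Meg3, Miat, Neat1 and Rian hold runs of the repeat, 16 bases long in Rian, whereas those of Malat1 and Snhg11 hold a single match. Gas5 held 2 matches, Snhg8 1 and Snhg12 0. Of all 30-base exon windows, 1.15% held a match on the transcribed strand. The opposite-strand letters ACACAC occurred 27 times in Neat1, 12 times in Rian, 5 times in Meg3 and 2 times each in Malat1 and Miat. A match is a string of letters and not a binding site.

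Snhg11 differs from the rest in its annotation. GENCODE M21 calls the gene protein-coding, with 1 protein-coding transcript, 2 that are marked for nonsense-mediated decay and 2 with retained introns, and no other member has a protein-coding transcript. Its annotated reading frame has 87 codons and starts at chr2:158376200 of GRCm38, with the start codon in capitals:
Snhg11, chr2:158376200-158376229, plus strand: ATGagcctttgccgcaaggccctcttgaca

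How many reads of these genes could be counted was set in part before counting. The authors discarded every read that aligned to annotated non-coding RNAs, in footprints and total mRNA alike, so the deposited counts are what escaped that removal. Of the 3081 genes that GENCODE M21 calls lincRNA, 66.9% had no read in any of the 28 libraries and 21 (0.682%) reached 100 reads in all, against 57.7% of protein-coding genes. Over all libraries Snhg11 had 13369 reads, Meg3 2567, Malat1 2403, Rian 428, Miat 251, Gas5 80, Neat1 50, Snhg12 21 and Snhg8 11. Inside the span of Snhg1 the tables list 8 small nucleolar RNA genes, with 84 reads in all. Which transcripts the removal used is not given in the sources used here, and its part in any result below was not tested. The share of a member's exonic bases that another gene also covers, where reads are left uncounted by the counting program's default, was 13.8% for Malat1, 17.8% for Gas5, 20.5% for Snhg12 and 15.2% for Snhg8, and at most 11.9% for the others.

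Depth limits the footprints most. Between 332370 and 1219222 reads were assigned to genes per MN1 footprint library, between 166064 and 2528820 per neuron footprint library, between 1328528 and 2988339 per MN1 total mRNA library and between 600385 and 6969578 per neuron total mRNA library. Levels are given in counts per 1000000 assigned reads (CPM), and 3 counts are worth up to 18.1 CPM in the shallowest footprint library and 0.430 CPM in the deepest total mRNA library. As a check of the labels, 4 genes of dividing cells summed to 430 to 715 CPM in MN1 total mRNA and to 2.49 to 5.07 CPM in neurons, and 8 neuronal genes to 505 to 590 and 3189 to 4856 CPM. The sum of 12 genes of glia and other cortical cells was 66.4 to 136 CPM in neuron total mRNA, with 1 of them, Cldn5, at 0 throughout. Reads on the mouse Tardbp gene, to which human transgene reads can also align, were higher with hTDP-43 (431 to 513 CPM) and hTDP-43A315T (437 to 472 CPM) than with GFP (265 to 308 CPM) in MN1 total mRNA, and overlapped between the neuron groups (43.3 to 79.1 CPM). The cultures are separate, and p-values measure the spread between libraries of the same kind from different cultures. The main fits of footprints against total mRNA leave out the pairing of libraries by culture, which the fits with a block take in.

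In the counts of cortical neurons, Snhg11 was the highest of these RNAs and Malat1 and Meg3 followed. Neat1, Gas5, Snhg8 and Snhg12 were near or below the detection floor. These levels are those left after reads on annotated non-coding RNAs were discarded, and Snhg11 is the member annotated as protein-coding. How far the removal shaped this order was not tested. In total mRNA of the 8 neuron cultures, Snhg11 had 350 CPM in the lowest, 445 in the median and 570 in the highest culture. Meg3 had 50.4, 83.2 and 111 CPM, and Malat1 had 35.5, 78.4 and 133 CPM. Rian had 5.00, 11.6 and 18.2 CPM and Miat 5.00, 7.18 and 13.3 CPM, so each was found in every culture. Per kb of exon, the only scale on which genes can be ranked, total mRNA levels were 54.0 ± 10.1 CPM per kb for Snhg11, 11.0 ± 4.78 for Malat1, 4.57 ± 1.35 for Meg3, 0.833 ± 0.301 for Miat and 0.671 ± 0.274 for Rian (SD, n = 8). The ranges of Malat1 and Meg3 overlapped, although Malat1 was the higher of these per kb in each culture. Malat1 had 5.08 CPM per kb in its lowest library (hTDP-43 replicate 2) and Meg3 6.15 in its highest (hTDP-43 replicate 1). The ranges of Miat and Rian overlapped, as did those of the 4 scarce members, whose means were at most 0.152 CPM per kb. Gas5, Snhg8 and Snhg12 also reached into the range of Rian. In neurons Neat1 had 25 reads in all total mRNA libraries together, Gas5 20, and Snhg8 and Snhg12 5 each.

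**Figure D1:**
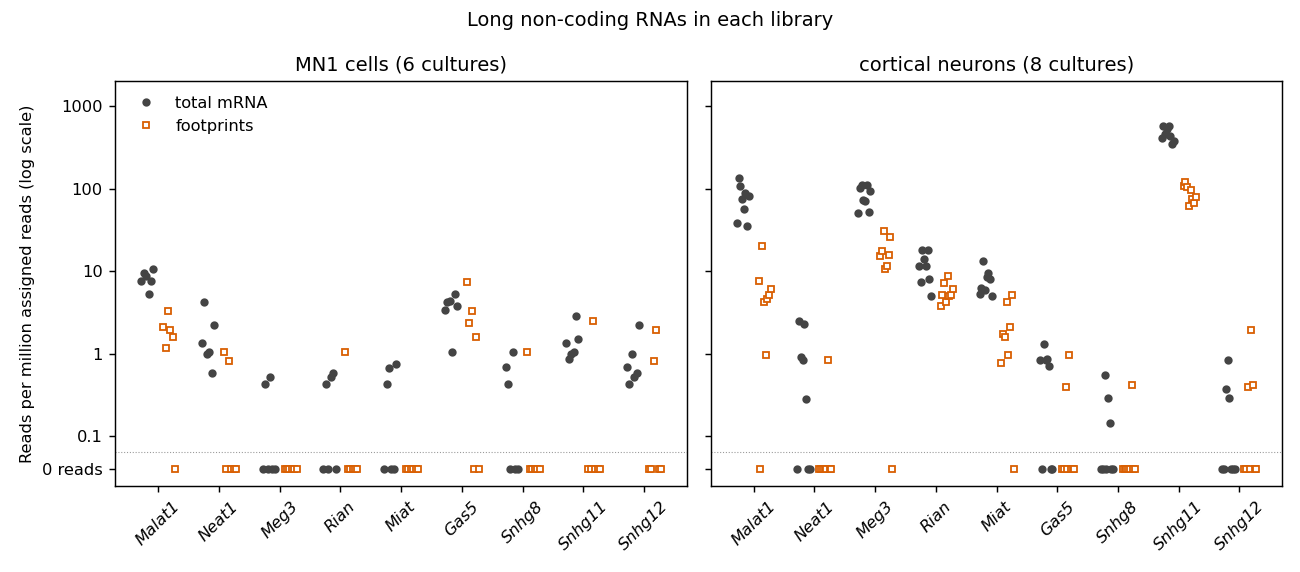
Level of each listed RNA in every library, in CPM on a log scale, for MN1 cells (left) and cortical neurons (right); filled circles are total mRNA and open squares footprints, 1 point per culture, and points on the bottom line had 0 reads. In neurons the footprint points of Malat1, Meg3 and Snhg11 lie below all their total mRNA points, and in MN1 cells most members lie at a few reads.

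The same order did not hold in the MN1 line. In CPM Malat1 led there, with 5.23, 8.13 and 10.5 CPM in the lowest, median and highest of 6 total mRNA libraries, and Gas5 had 1.05, 4.03 and 5.23 CPM. Snhg11 had 0.859 to 2.91 CPM and Neat1 0.581 to 4.29 CPM. Meg3 had 2 reads in the 6 total mRNA libraries together, Rian 3 and Miat 4. Per kb, Malat1 (1.17 ± 0.264 CPM per kb) and Gas5 (0.980 ± 0.381) overlapped and lay above Neat1 (0.0846 ± 0.0656, SD, n = 6). The ranges of Snhg12 (0.562 ± 0.423, 10 reads in all) and Snhg8 (0.422 ± 0.516, 4 reads in all) also overlapped that of Malat1.

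The first comparison asked how far each RNA was represented among footprints relative to its share of total mRNA. In neurons the nuclear RNA Malat1 had the lowest value, 11.2-fold less in footprints than in total mRNA. Snhg11, Meg3 and Miat were 5.53-fold, 5.09-fold and 4.81-fold lower, and Rian was 2.27-fold lower. Total mRNA was selected by its poly(A) tail and footprints were not, and the counts hold no position within a gene, so fragments under a ribosome and fragments protected in another way cannot be told apart. Malat1 footprints numbered 0 in WT replicate 3, 1 in each of hTDP-43 replicates 2 and 3 and hTDP-43A315T replicate 3, 2 in hTDP-43A315T replicate 2, 10 in WT replicate 2, 11 in hTDP-43 replicate 1 and 51 in hTDP-43A315T replicate 1. These are 0 to 20.2 CPM with a median of 4.91, and the groups of libraries did not overlap, since the lowest total mRNA library had 35.5 CPM. Footprint CPM was lower than total mRNA CPM in 8 of 8 cultures. Summed over libraries, 77 footprint against 2221 total mRNA reads gave a footprint share of 0.106 times the total mRNA share (95% Clopper-Pearson interval 0.0835 to 0.133, for counting error only). The culture hTDP-43A315T replicate 1 holds 51 of these 77 footprint reads, and without it the ratio was 0.0546 (0.0356 to 0.0803) and the edgeR log2 difference -4.31. The log2 difference was -3.48 (SE 0.47, adjusted p = 4.13e-06, edgeR's quasi-likelihood test with Benjamini-Hochberg adjustment over the 11034 genes that passed its filter, a minimum count of 10 in enough libraries). Of all genes tested, 27 (0.245%) had a lower value, and 58.1% differed at an adjusted p of 0.05, 31.9% of all genes being lower and 26.2% higher in footprints.

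**Figure D2:**
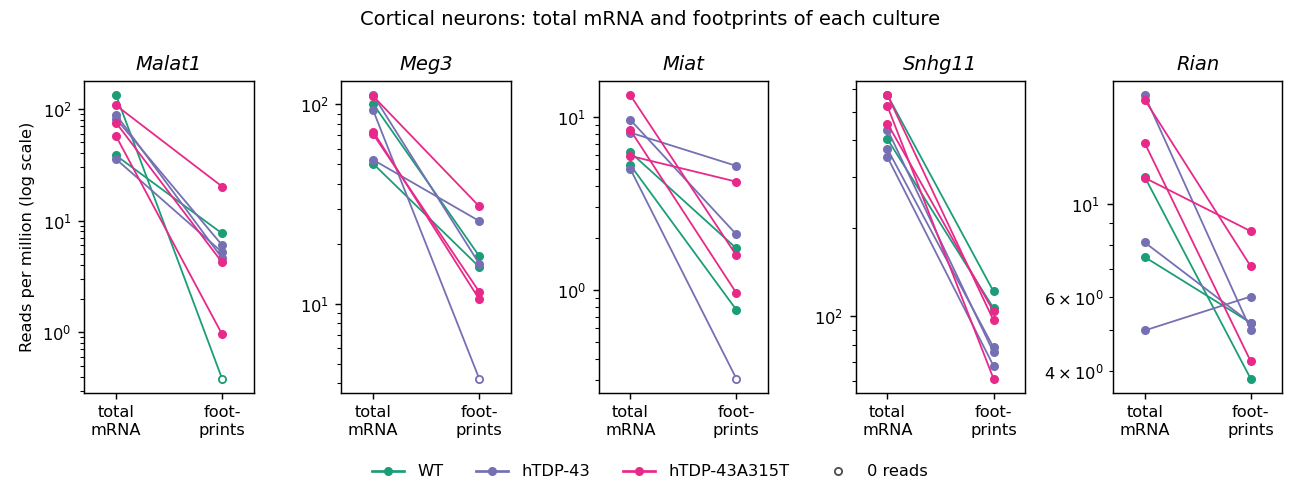
Total mRNA and footprint level of 5 RNAs in each neuron culture, in CPM on log scales that differ between panels; a line joins the libraries of 1 culture, colours give the genotype and open circles had 0 reads, drawn below the lowest value. All 8 lines fall for Malat1, Meg3, Miat and Snhg11, and 7 of 8 fall for Rian.

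Meg3, an imprinted RNA of neurons, had footprints in 7 of 8 neuron cultures, with 0 CPM in the lowest, 15.6 in the median and 30.8 in the highest. All 8 cultures had less Meg3 in footprints than in total mRNA, and the 2 kinds of library did not overlap. The log2 difference was -2.35 (SE 0.30, adjusted p = 2.13e-06, edgeR) and the summed ratio 0.215 (0.183 to 0.251), from 168 footprint reads. Snhg11 had 61.2, 87.6 and 122 CPM in footprints, far below its lowest total mRNA library at 350 CPM. Its log2 difference was -2.47 (SE 0.15, adjusted p = 3.54e-10, edgeR) and its summed ratio 0.197 (0.184 to 0.212), from 808 footprint reads. Of 10890 protein-coding genes with at least 100 total mRNA reads, 1.21% had a lower summed ratio than Snhg11 and 0.367% a lower one than Malat1, around a median of 0.975.

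Miat and Rian are the scarcer neuronal members. Miat had 15 footprint reads in all, with 0 to 5.21 CPM per library, and was lower in footprints in 8 of 8 cultures, although the highest footprint library lay just above the lowest total mRNA library (5.00 CPM). One of the 8, hTDP-43 replicate 3, cannot show a difference. It had 0 footprint and 3 total mRNA reads, and 3 footprint counts there are worth 18.1 CPM. The other cultures had 1 to 5 Miat footprint reads each. Its log2 difference was -2.27 (SE 0.37, adjusted p = 3.02e-05, edgeR) and its summed ratio 0.198 (0.109 to 0.334). Rian, which shares its imprinted cluster with Meg3, had 3.83, 5.21 and 8.63 CPM in footprints against 5.00, 11.6 and 18.2 in total mRNA, so that the ranges overlapped. It was lower in footprints in 7 of 8 cultures, the exception being hTDP-43 replicate 3 with 1 footprint read and 3 total mRNA reads. Its log2 difference was -1.18 (SE 0.26, adjusted p = 6.74e-04, edgeR), and its summed ratio, 0.419 (0.306 to 0.563), lay above the interval of Meg3. The difference between members was not tested. Meg3 and Snhg11 also passed the filter on low counts in footprint libraries alone, whereas Malat1, Rian and Miat passed through their total mRNA libraries, so their number among the genes tested is no support for a direction.

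The other members had too few reads in neurons for the test. Neat1 had 2 footprint reads against 25 in total mRNA, a ratio of 0.245 (0.0281 to 0.983), with both footprint reads in hTDP-43 replicate 1. Gas5 had 2 against 20 (0.306, interval 0.0347 to 1.26), Snhg8 1 against 5, and Snhg12 4 against 5 (2.45, interval 0.486 to 11.4). At this depth a difference of Gas5, Snhg8 or Snhg12 was not detectable, and the Neat1 interval, for counting error only, ends just below 1. Without the filter the edgeR log2 difference of Neat1 was -1.80 (adjusted p = 0.174).

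In MN1 cells only Malat1 passed the filter, again through its total mRNA libraries. Its 6 footprint libraries held 0 to 4 reads, which is 0 to 3.28 CPM with a median of 1.75, and its total mRNA libraries 10 to 26 reads. The point values of the 2 kinds of library did not overlap, and all 6 cultures had less Malat1 in footprints. Counting error per culture is wide. The 0 reads of hTDP-43 replicate 2 have an upper 95% limit of 11.1 CPM, against 10.5 CPM in its total mRNA. The log2 difference was -1.77 (SE 0.42, adjusted p = 0.00162, edgeR, 9972 genes tested), in a comparison in which 60.2% of genes differed, 31.2% lower and 29% higher. The summed ratio was 0.245 (0.109 to 0.485), against a median of 0.818 over 9247 protein-coding genes. Gas5, a host of many small nucleolar RNAs whose spliced transcript is degraded when ribosomes reach its early stop codon, had 14 footprint and 44 total mRNA reads, a ratio of 0.831 (0.421 to 1.55). Its footprints numbered 7 in GFP replicate 1, 2 in GFP replicate 2, 4 and 0 with hTDP-43A315T, and 1 and 0 with hTDP-43. The Gas5 interval holds the protein-coding median and does not hold the ratio of Malat1, 0.245, while the 2 intervals overlap between 0.421 and 0.485. Without GFP replicate 1, which holds 7 of the 14 footprint reads, the ratio was 0.519 (0.196 to 1.17), still with the median inside its interval. That interval then also held the Malat1 ratio, 0.245 with all cultures and 0.238 without GFP replicate 1. Neat1 had 2 against 21 reads (0.249, interval 0.0283 to 1.02), Snhg11 3 against 16, Snhg12 2 against 10, Snhg8 1 against 4 and Rian 1 against 3, and Meg3 and Miat had no footprint read.

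**Figure D3:**
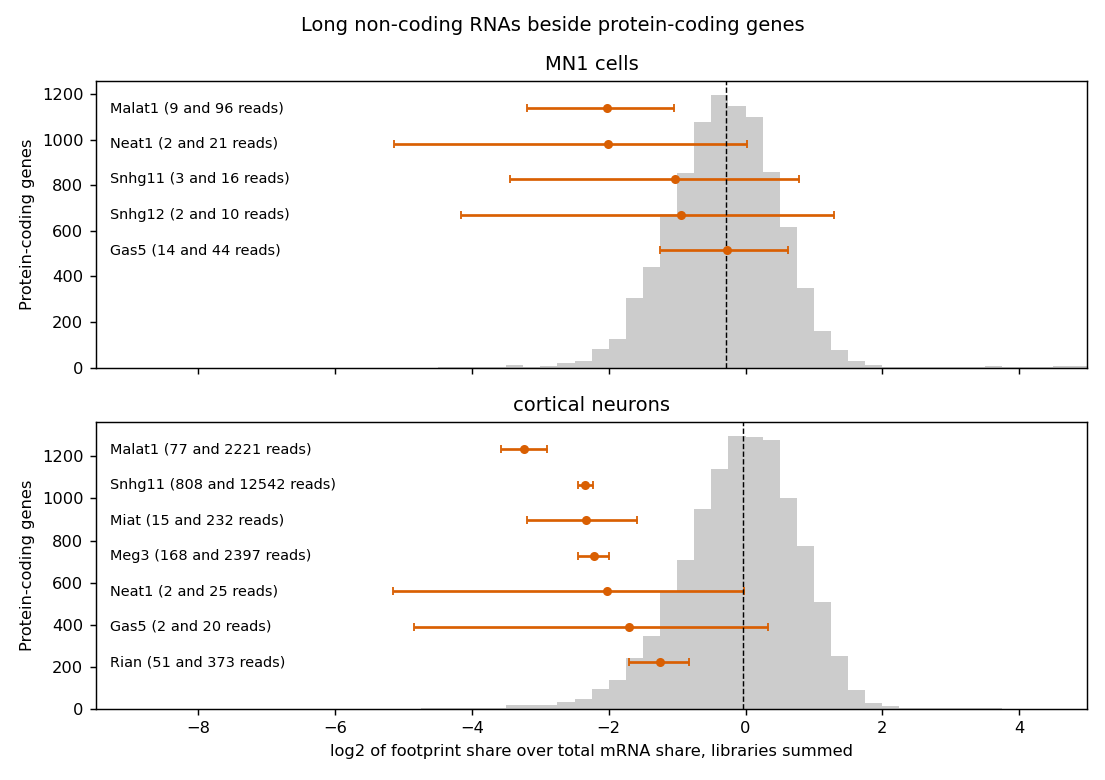
Distribution of the log2 ratio of footprint share to total mRNA share, libraries summed, over protein-coding genes with at least 100 total mRNA reads (grey bars, dashed line at the median), with the RNAs that had at least 10 total mRNA reads and 1 footprint read (orange points, 95% counting intervals, heights arbitrary, footprint and total mRNA reads in brackets). Malat1 lies in the lower tail in both cell types, with ratios of 0.245 and 0.106, and the Gas5 interval in MN1 cells (0.421 to 1.55) holds the median.

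Other non-coding RNAs of the same kinds were mostly too scarce to test. Of 20 further host genes of small nucleolar RNAs or microRNAs, 15 were listed and 1 was tested, Zfas1, a host whose transcript also starts with a terminal oligopyrimidine tract. Its log2 difference was -1.33 in neurons (SE 0.30, adjusted p = 8.68e-04) and -0.88 in MN1 cells (SE 0.14, adjusted p = 3.91e-05, edgeR). Of 26 further long non-coding RNAs, 20 were listed and 3 tested in neurons, where 2900097C17Rik (-2.61, SE 0.29) and D430019H16Rik (-1.71, SE 0.11) were lower in footprints and Gm26917 was not called (-0.08, SE 0.52). In MN1 cells 2 were tested, with 2900097C17Rik lower (-1.70, SE 0.31) and Gm26917 not called (-0.29, SE 0.16). By annotation, 14 lincRNAs were tested in neurons, Malat1, Meg3 and Miat among them, of which 8 were lower and 2 higher, with a median of -1.18 beside -0.06 for all genes tested (31.9% lower, 26.2% higher). In MN1 cells 9 were tested, of which 4 were lower and 3 higher, with a median of -0.81, where 31.2% of all genes were lower and 29% higher. A gene can pass the filter on low counts through its total mRNA libraries alone, so these counts and medians are no support for a direction.

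Coding genes with related roles are set beside the shares of all genes called, 26.2% higher and 31.9% lower in neurons and 29% higher and 31.2% lower in MN1 cells. Of 11 coding genes for paraspeckle and speckle proteins, 6 were higher in footprints and 1 lower in neurons, with a median log2 difference of 0.50, and 7 were higher in MN1 cells. Pspc1, a paraspeckle protein, was at 1.21 (SE 0.13) and Hnrnpk at 1.12 (SE 0.11) in neurons, while Srsf2, a speckle splicing factor, was at -0.36 (SE 0.12) and Son at -0.29 (SE 0.19, not called). Of 20 coding genes that host small nucleolar RNAs or have terminal oligopyrimidine tracts, 12 were higher and 3 lower in neurons, with a median of 0.58, and 15 were higher and 3 lower in MN1 cells. Hspa8, a chaperone gene with small nucleolar RNAs in its introns, was at 1.68 (SE 0.17) in neurons and Npm1, a nucleolar protein gene, was higher too (adjusted p = 8.16e-08, edgeR), and Rpsa, a ribosomal protein gene, was at -1.66 (SE 0.20) and Tpt1 at -0.63 (SE 0.13). The 10 coding genes of neurons gave 8 higher and 0 lower, from -0.17 (Camk2a, SE 0.12) and -0.12 (Nefl, SE 0.14), neither called, to 1.16 (Tubb3, SE 0.13) and 1.25 (Snap25, SE 0.10).

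The second comparison set neurons against MN1 cells, which differ in origin, growth and cycloheximide treatment at once. These cannot be told apart, nor can fewer cells of a type and less RNA per cell in bulk samples. In total mRNA, Snhg11, Meg3, Rian, Miat and Malat1 were higher in neurons and Gas5 was lower. Snhg11 had the most counted reads of them, and its 8 neuron libraries (350 to 570 CPM) lay far above the 6 MN1 libraries (0.859 to 2.91 CPM). Its log2 difference was 8.82 (SE 0.27, adjusted p = 1.45e-12, edgeR, 12801 genes tested), in a comparison in which 81% of genes were called, 42.6% higher and 38.4% lower in neurons. Malat1 ranged from 35.5 to 133 CPM in neurons and from 5.23 to 10.5 CPM in MN1 cells, without overlap, a log2 difference of 3.75 (SE 0.41, adjusted p = 6.88e-07). For the members with 2 to 4 MN1 reads the ratio of summed shares is given with its counting interval. Meg3 was 529 times higher in neurons (146 to 4375), Rian 54.9 times (18.7 to 268) and Miat 25.6 times (9.87 to 94.8), and edgeR called each of them. The Meg3 ratio rests on 2 MN1 reads and was 849 without GFP replicate 2 and 886 without hTDP-43A315T replicate 2. These 3 and Snhg11 passed the filter through neurons and Gas5 through MN1 cells, so their number is no support for a direction. Gas5 had 1.05 to 5.23 CPM in MN1 cells and 0 to 1.30 CPM in neurons, where only hTDP-43A315T replicate 2 of the MN1 cultures reached down into the range of neurons. Its log2 difference was -2.08 (SE 0.51, adjusted p = 0.00175, edgeR), and it was -3.29 without neuron hTDP-43 replicate 1 and -3.26 without WT replicate 2.

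In footprints, 82.6% of genes were called by edgeR and 42.7% were higher in neurons. Snhg11 and Meg3 were the members tested and both were called higher, but they passed the filter only through neurons, so these calls are no support for a direction. Snhg11 had 808 footprint reads in neurons and 3 in MN1 cells, a ratio of shares of 139.6 (47.6 to 678, counting error only). All 3 MN1 reads are in hTDP-43A315T replicate 1, and the fitted log2 difference, 8.24 (SE 0.40), was 9.51 without that culture, which leaves the MN1 group at 0 reads. Meg3 had no read in 6 MN1 footprint libraries. It was 29.0-fold higher in neurons than a floor of 3 counts over the MN1 group, the one-sided limit for a count of 0. The lower 95% counting limit of its ratio was 23.3. Malat1 footprints averaged 6.11 ± 6.22 CPM in neurons (SD, n = 8) and 1.68 ± 1.09 CPM in MN1 cells (n = 6), and these ranges overlapped. The summed ratio, 4.43 (2.22 to 10.1), was 2.11 (0.960 to 5.13) without neuron hTDP-43A315T replicate 1. Rian had 51 footprint reads in neurons and 1 in MN1 cells, a ratio of shares of 26.4 (4.54 to 1064, counting error only). Miat had 15 and 0, which is 2.59-fold higher than the same floor, with a lower 95% counting limit of 1.86. Gas5 went the other way, with 2 footprint reads in neurons and 14 in MN1 cells, a ratio of 0.0740 (0.00817 to 0.322). It was 0.117 without MN1 GFP replicate 1 and 0.0421 without neuron hTDP-43A315T replicate 3.

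An interaction term of cell type and library type tested whether the ratio of footprints to total mRNA itself differed between neurons and MN1 cells. By edgeR it called 9.99% of 12068 genes and 0 of the 5 members tested, with 0 of these at an unadjusted p under 0.05, and DESeq2 called 0. Malat1 had a log2 difference of differences of -1.51 (SE 1.14, adjusted p = 0.438), which was -2.39 without neuron hTDP-43A315T replicate 1, and Snhg11 of -1.62 (SE 1.06, adjusted p = 0.370). Meg3 had no MN1 footprint read, so its fitted value depends on the tool (-0.59 by edgeR, adjusted p = 0.875, and -3.16 by DESeq2, adjusted p = 0.0919) and is no measure of the difference. The Malat1 value was -1.55 (SE 0.89) with the culture as a block. Without the filter it was -1.40 (SE 0.62, unadjusted p = 0.0361, adjusted p = 0.327, edgeR). With 9 MN1 footprint reads of Malat1 and 3 of Snhg11, no fit called a difference of this size, which does not show that the ratios are alike. The Snhg11 value turned to 1.67 when the hTDP-43A315T replicate 1 culture of MN1 cells, which holds all 3 of its MN1 footprint reads, was left out.

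The third comparison asked whether human TDP-43 or its A315T form moved these RNAs. In neurons no member was called by edgeR in 6 comparisons, 3 of footprints and 3 of total mRNA, which held 21 tests of members, 1 of them at an unadjusted p under 0.05. With the replicate number as a block, 3 of the 21 tests were under 0.05, all of Snhg11, and none was called. DESeq2 called none either, and the share of all genes called by edgeR was 0% in each of the 6. Malat1 had 38.2 and 133 CPM in total mRNA of the WT cultures, 89.0, 35.5 and 81.6 CPM with hTDP-43, and 108, 75.2 and 57.0 CPM with hTDP-43A315T. The WT cultures lay on both sides of all others except hTDP-43 replicate 2, which was just below the lower one. The log2 difference from WT was -0.50 (SE 0.67, adjusted p = 1.00) for hTDP-43 and -0.43 (SE 0.61, adjusted p = 1.00) for hTDP-43A315T, and that of hTDP-43A315T from hTDP-43 was 0.07 (SE 0.37, adjusted p = 1.00, edgeR). The sign depended on which WT culture was kept. Without WT replicate 2 the hTDP-43A315T difference was -1.15 (adjusted p = 0.0457), and without WT replicate 3 it was 1.15 (adjusted p = 1.00), each time with 1 WT culture that is assumed to vary like the rest. The fit without WT replicate 2 called 1572 of 12558 genes (12.5%), Malat1 among them, and the fit without WT replicate 3 called 1 of 12288. In WT replicate 3, Lars2 alone took 18.8% of assigned reads in total mRNA, the highest share of the 8 libraries (lowest 3.09%). The next highest was hTDP-43 replicate 3 with 14.1%, where Malat1 had 81.6 CPM. The part of Lars2 in the Malat1 values was not tested.

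**Figure D4:**
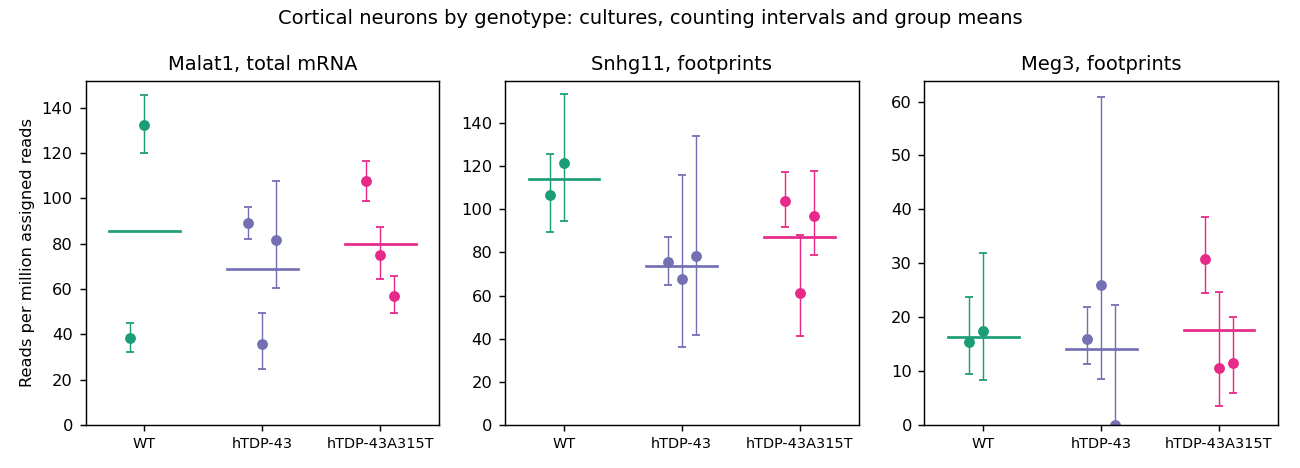
Malat1 in total mRNA and Snhg11 and Meg3 in footprints of neuron cultures by genotype, in CPM from 0; points are cultures with 95% counting intervals and bars are group means. The WT cultures of Malat1 (38.2 and 133 CPM) lie on both sides of the other cultures but 1, at 35.5 CPM. The 2 WT cultures of Snhg11 lie above the other 6, with counting intervals that overlap some of theirs.

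Snhg11 footprints were 107 and 122 CPM in the WT cultures, 75.3, 67.7 and 78.3 CPM with hTDP-43 and 104, 61.2 and 96.8 CPM with hTDP-43A315T. Both WT cultures lay above all 6 transgenic ones, but not beyond counting error. The 95% counting intervals of WT replicate 2 (89.6 to 126 CPM) and hTDP-43A315T replicate 1 (91.8 to 117 CPM) overlapped. The log2 difference from WT was -0.57 for hTDP-43 (SE 0.21, unadjusted p = 0.0158, adjusted p = 0.816) and -0.26 for hTDP-43A315T (SE 0.23, adjusted p = 1.00), and that between the transgenic groups 0.32 (SE 0.23, adjusted p = 1.00, edgeR). None of the 3 passed over all genes tested. Total mRNA of Snhg11 was 403 and 570 CPM in WT, 350 to 435 CPM with hTDP-43 and 456 to 570 CPM with hTDP-43A315T, with overlap. Meg3 footprints were 15.3 and 17.4 CPM in WT, 15.9, 26.0 and 0 CPM with hTDP-43 and 30.8, 10.6 and 11.5 CPM with hTDP-43A315T, and the groups overlapped.

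In MN1 cells no member passed the filter in footprints of any 2 groups (at most 0.0115% of genes called), and Malat1 was the member tested in total mRNA. It had 7.52 and 9.44 CPM with GFP, 7.56 and 10.5 CPM with hTDP-43 and 8.70 and 5.23 CPM with hTDP-43A315T. The groups overlapped, and the log2 difference of hTDP-43A315T from GFP was -0.22 (SE 0.43, adjusted p = 0.949, edgeR), where 0.00965% of genes were called. In the other MN1 comparisons of total mRNA 0.01% and 0% were called, and no member was called in the 3 tests by edgeR or by DESeq2 or had an unadjusted p under 0.05. The ratio of footprints to total mRNA was also compared between groups by the interaction. Without a block it called no member in 14 tests in neurons and 3 in MN1 cells, by edgeR or DESeq2, with 0 at an unadjusted p under 0.05. With the culture as a block, 1 of the 14 neuron tests was under 0.05 and none was called. It was Malat1 in hTDP-43A315T against hTDP-43, at 1.23 (SE 0.57, unadjusted p = 0.0429, edgeR), beside 1.22 (SE 0.94) without the block. For Malat1, hTDP-43A315T against WT neurons gave 1.62 (SE 1.37, adjusted p = 1.00), and 0.69 (SE 1.09, adjusted p = 1.00) with the culture as a block. Both values lean on 1 culture, since replicate 1 held 51 of the 54 Malat1 footprint reads of hTDP-43A315T. By culture, the footprint to total mRNA ratio was 0.188, 0.0561 and 0.0168 with hTDP-43A315T. It was 0.0518, 0.147 and 0.0738 with hTDP-43 and 0.201 and 0 in WT, so the groups overlapped.

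Over all 28 libraries, the genes whose log2 CPM followed Malat1 most closely were Tet3 (Pearson's r = 0.957), Arl5a (0.954) and Gm38393 (0.939) of 12358 genes. Those nearest to Meg3 were Vipr1 (0.976), Rtl1 (0.975) and Kcna6 (0.972). Rtl1 lies in the same imprinted cluster as Meg3. The libraries share cell type and library type, which alone can align genes, so these are descriptions, and Neat1 had too few reads to be ranked.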

How the data were processed

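Ribosome footprints and poly(A)-selected total mRNA were measured in 14 mouse cultures, and both were size-selected alike. The authors made the deposited counts, raw reads per gene, by clipping adapters, removing with Bowtie2 those that matched annotated non-coding RNAs, aligning the rest to GRCm38 with TopHat2 and counting reads on exons with featureCounts 1.4.4 on Ensembl release 80, without strand. Symbols and biotypes come from GENCODE M21, and sequences from the RefSeq copy of GRCm38.

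Members, gene lists and tests were chosen with earlier results of these data known. Every listed member is named. The 2 highest and 2 lowest genes of each list and the 3 genes most correlated with Malat1 or Meg3 are named too. All genes were fitted with edgeR 4.0.16 in R 4.3.3 (TMM, minimum count 10 and total 15, quasi-likelihood test, Benjamini-Hochberg, adjusted p under 0.05), and the scripts were tested on simulated data. Footprints and total mRNA were compared with genotype as a covariate. SEs are the log2 difference over the square root of F and are left out where p exceeds 0.9. Ratios of summed reads have 95% Clopper-Pearson intervals. Alternatives were the culture or replicate number as a block, RLE scaling, no filter, DESeq2 1.42.0, protein-coding library sizes and each culture left out. Libraries of 1 replicate number share a labelled date (1 GFP footprint library differs in its year), and those of the same culture correlated over genes by 0.213 (MN1) and 0.152 (neurons) on average in their deviations from group means. No columns were left unused, and Snhg1 was not analysed here.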

Additional observations from a re-analysis of the deposited data

How the results depend on the processing

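Malat1, Meg3, Rian, Miat and Snhg11 stayed lower in neuron footprints than in total mRNA, at an adjusted p under 0.05, in every fit that tested them. With each culture left out, the log2 difference ranged from -4.31 to -2.95 for Malat1, from -2.57 to -2.10 for Meg3 and from -2.49 to -2.33 for Snhg11, and 4 to 5 members were called, Miat failing the filter in 2 of these 8 fits. Malat1 in MN1 cells ranged from -2.14 to -1.55. With the culture as a block, the pairing left every call in place (-3.53 for Malat1, -2.45 for Snhg11 and -1.30 for Rian in neurons, -1.78 for Malat1 in MN1 cells), and no member was called between groups once a replicate block was added. No paired analysis was possible because the cell types share no cultures in the comparison of neurons with MN1 cells within a library type. Without the filter on low counts, 6 members rather than 2 were called between the cell types in footprints, since 7 more members were then tested, and 44.6% of 22853 genes were called in that fit. Leaving out WT replicate 2 of the neurons raised the calls in the neuron group comparisons from 0 to 1, which was Malat1 in total mRNA of hTDP-43A315T against WT at -1.15 (adjusted p = 0.0457), 1 of 1572 genes (12.5%) called in that fit, while without WT replicate 3 it was 1.15. The other leave-one-out fits of the neuron groups called 0 members. Over all genes these 6 neuron comparisons called 0 with the filter and 23 to 209 without it. With a culture left out, the sign also changed for Malat1 in hTDP-43 against WT (1.09 without WT replicate 3, -1.27 without WT replicate 2) and in hTDP-43A315T against hTDP-43 (-0.27 without hTDP-43 replicate 2, -0.28 without hTDP-43A315T replicate 1, at most 0.30), and Snhg11 in the difference of ratios between the cell types (from -2.25 to 1.67, the latter without MN1 hTDP-43A315T replicate 1). Under the replicate block 7 of 52 member values changed sign, 0 of them called and none above 0.53 in size, for example Meg3 footprints in hTDP-43A315T against WT neurons (from 0.41 to -0.52). The cause was not tested. Of 337 refits of single members 331 kept direction and side of the threshold, and of 127 counts of calls 115 were the same number. The summed ratios with a culture left out were added after seeing the data. Depth limits Neat1, Snhg8 and Snhg12, and Gas5 in footprints, to counting intervals.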
